A study of Mus musculus with 3 samples.

Results

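Plasmacytoid dendritic cells were examined in mouse livers profiled by single-cell RNA sequencing after a paracetamol overdose. The members were chosen by measured values: a barcode, the tag of 1 droplet and so usually of 1 cell, needed at least 2 transcript counts (UMIs) of Siglech and at least 1 of Ccr9, Cox6a2, Klk1 or Pacsin1. It could hold at most 2 UMIs of C1qa, C1qb and C1qc together and none of Cd3e or Ms4a1. Only barcodes with 200 or more genes, 500 or more UMIs and no more than 20% mitochondrial UMIs were kept. The rule found 291 of 30684 kept barcodes: 115 of 10437 after PBS, 64 of 10203 after native mesenchymal stromal cells (MSCs) and 112 of 10044 after engineered MSCs. Values are given in this order of livers throughout.

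All mice had received 500 mg/kg paracetamol, which injures hepatocytes, and an infusion 6 h later. The infusion was PBS, native MSCs, or MSCs engineered with bispecific polyvalent peptides, and liver was collected at day 4. Each group was 1 mouse and 1 library, so every difference is between 3 livers, with no replicate check and no test. The strain and age of the mice were not given in the sources used here, and no liver without paracetamol was analysed here.

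Plasmacytoid dendritic cells develop under the E-protein transcription factor TCF4, circulate in a resting state and are scarce in liver. They sense viral and self nucleic acids through TLR7 and TLR9 in endosomes and can answer with large amounts of type I interferon through IRF7. At rest they carry inhibitory receptors such as Siglec-H and little MHC class II, which increases when they mature.

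E proteins bind E-boxes, so the bases before the start sites of 3 genes of the rule are shown, with the match to 1 of the E-box motifs searched in capitals. Other E-box variants were not searched and stay in lower case. The sequences are from RefSeq on GRCm38.p6, end at the start site and lie on the plus strand, at chr7:55767934-55768183 for Siglech, chr7:44225110-44225359 for Klk1 and chr9:123766961-123767210 for Ccr9.
Siglech: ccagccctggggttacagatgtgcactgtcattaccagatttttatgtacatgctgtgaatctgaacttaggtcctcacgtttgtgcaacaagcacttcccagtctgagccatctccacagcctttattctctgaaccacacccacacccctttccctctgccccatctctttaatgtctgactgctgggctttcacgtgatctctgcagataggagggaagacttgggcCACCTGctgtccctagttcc
Klk1: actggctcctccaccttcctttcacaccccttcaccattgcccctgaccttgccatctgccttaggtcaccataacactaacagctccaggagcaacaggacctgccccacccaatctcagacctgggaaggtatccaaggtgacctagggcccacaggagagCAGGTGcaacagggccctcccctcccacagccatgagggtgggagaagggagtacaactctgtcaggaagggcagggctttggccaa
Ccr9: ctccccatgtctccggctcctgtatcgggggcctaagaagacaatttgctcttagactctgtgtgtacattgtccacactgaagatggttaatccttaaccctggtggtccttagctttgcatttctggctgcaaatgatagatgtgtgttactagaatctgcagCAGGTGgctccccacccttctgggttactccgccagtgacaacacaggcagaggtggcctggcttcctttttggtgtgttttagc
Searched on both strands were CAGCTG and CACCTG, whose reverse complement is CAGGTG, in windows of 300 bases that include 50 after the start site. The match began 20 bases before the start site of Siglech, 87 before that of Klk1 and 85 before that of Ccr9, and these letters were not in the window of Pacsin1. A window was matched for 4 of the 5 genes, all but Cox6a2. At least 1 of the motifs was found for 36.2% of 26794 genes with a window. It was found for 16 of the 29 matched genes on the lists of plasmacytoid receptors and markers. A match describes letters in the genome, not a binding site.

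The libraries held 62564254 to 84950721 UMIs each. The median member held 5291, 6665 and 6986 UMIs, against 5959, 6088 and 3845 for all kept barcodes. Its median mitochondrial share was 3.06%, 3.09% and 3.76%. Between 39 and 46 barcode sequences were shared by each pair of libraries, and 0 of these were members. Scrublet marked 9, 10 and 11 members as likely doublets, which were kept in the values given here. Intervals in brackets are exact 95% intervals and cover counting error only.

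The rule genes are given as a description, since they chose the members. Siglech was at 1795, 1557 and 1822 CPM, the gene's share of all member UMIs on the CPM scale. Ccr9, a gut-homing chemokine receptor, was at 859, 646 and 618 CPM. Cox6a2, a cytochrome c oxidase subunit typical of muscle, was at 425, 238 and 447 CPM and Pacsin1, a membrane-bending adaptor, at 441, 281 and 339.5 CPM. At least 2 of the 4 second genes were found in 103, 55 and 105 members. Members with exactly 2 Siglech UMIs, just inside the rule, numbered 7, 3 and 1, with a median of 17, 22 and 33 Tcf4 UMIs. Barcodes with exactly 1, just outside it, numbered 7, 4 and 3, with a median of 14, 8.5 and 23 Tcf4 UMIs. A Siglech UMI was found in 2 of 412, 0 of 269 and 0 of 1200 B barcodes and in 0 of 154, 1 of 273 and 2 of 610 T barcodes. It was found in 6 of 66, 2 of 26 and 3 of 174 type 1 and 1 of 47, 3 of 27 and 0 of 50 type 2 conventional dendritic barcodes. Members were left out of these dendritic classes beforehand, so their low Siglech shares were partly fixed by the rule. The median depth was 2514, 2718 and 3089.5 UMIs for B, 3696, 7370 and 4996 for T, 8820, 11460.5 and 11083 for type 1 and 6679, 8368 and 7671 for type 2 barcodes.

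The label was checked with Tcf4 and Bst2, which the rule did not use. Tcf4 was detected in 114, 64 and 112 members and stood at 6126, 5189 and 6144 CPM, against 83.5, 49.5 and 81.1 CPM in T barcodes. It was at 520.1, 380.4 and 454 CPM in B and 819, 799 and 749.8 CPM in type 1 conventional dendritic barcodes. Bst2, an interferon-inducible receptor, was detected in 107, 64 and 108 members and stood at 2596, 3147 and 2951 CPM, against 219.7, 166 and 185 CPM in T and 445, 605 and 401 CPM in type 1 barcodes. Both markers were thus present in nearly all members of every liver. Irf8, a factor of several dendritic lineages, was at 3650.0, 3360.4 and 3059.5 CPM. Runx2, which takes part in their exit from bone marrow, was at 3439, 3277 and 3391 CPM. Bcl11a, which acts upstream of Tcf4 in this lineage, was at 991, 1031 and 1131 CPM, and Spib, an ETS factor shared with B cells, at 226, 174 and 209 CPM.

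Genes that define conventional dendritic cells were examined next. Id2, the E-protein antagonist, was at 65.9, 52.1 and 44.3 CPM in members and 1192, 951 and 959.6 CPM in type 1 conventional dendritic barcodes. Xcr1, which marks type 1 conventional dendritic cells, had 0 UMIs in members. The 8 type 1 markers, Xcr1 among them, summed to 428, 369 and 546 CPM in members. Clec9a, a receptor that mouse plasmacytoid cells can also carry, was found in 51, 42 and 70 members. Type 1 barcodes were picked by at least 2 UMIs of Xcr1 and Clec9a together, with members left out. Cd209a, the lectin gene used to pick type 2 conventional dendritic barcodes, was found in 39, 27 and 37 members at 128, 159 and 122 CPM, against 938, 636 and 1005 CPM in type 2 barcodes. The 8 type 2 markers summed to 906, 1049 and 854 CPM in members. The B-cell receptor gene Cd79a had 1, 0 and 0 UMIs, while the 8 B-cell markers summed to 28, 27 and 24 UMIs. Ighm, an immunoglobulin heavy chain gene, was found in 107, 64 and 106 members. Xcr1, Clec9a, Cd209a, Cd79a and Ighm are named outside the naming rule, after their values were seen. The same holds for Runx2 above and for H2-DMa, Lyz2, Cd8b1, Isg15 and H2-D1 below.

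**Figure D1:**
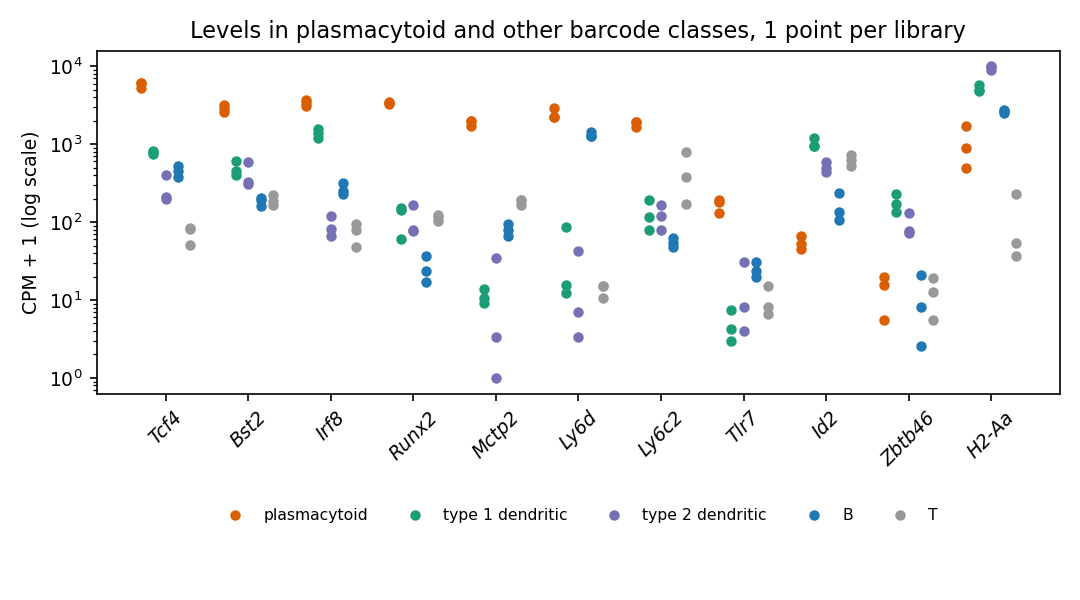
CPM of genes (log scale, with 1 added) in plasmacytoid barcodes and in other barcode classes, 1 point per library. Tcf4 lies higher in plasmacytoid than in T barcodes in all 3 libraries, and Id2 lies below its level in type 1 conventional dendritic barcodes.

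Outside the rule, Havcr1, Grm8, Pdzd4, Atp2a1 and Smim5 were among the genes that set members furthest apart from the other kept barcodes of their own library. Havcr1, which encodes the phosphatidylserine receptor TIM-1, was at 155, 86.1 and 149 CPM in members and 0.653, 0.147 and 0.152 CPM in other barcodes. Grm8, a metabotropic glutamate receptor gene, was at 1274, 629.9 and 1918 CPM against 6.05, 1.14 and 2.22 CPM. Among immune receptors, the C-type lectin Cd209d was at 254, 419 and 314 CPM and Cd300c at 305, 329 and 408 CPM. Lymphoid genes were present too. Dntt, the terminal transferase of antigen receptor rearrangement, was at 176, 177 and 104 CPM. Iglc3, an immunoglobulin lambda constant region, was at 265, 147 and 379 CPM against 3.85, 2.25 and 8.07 CPM in T barcodes. These values describe the chosen barcodes and were not tested.

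Over 18 points (6 barcode classes in 3 libraries), the genes whose CPM ranked most like that of Siglech were Lefty1 (Spearman's rho 0.90), Sh3bp4 (0.88), Cd300c (0.86) and Slc35c2 (0.86). Siglech chose the members, so its member points were high by the rule, and at the other points it was at 0 to 75.8 CPM. The points also share libraries and depth. The 3921 genes ranked each needed at least 20 member UMIs in every library, so the ranking describes this choice and supports nothing further.

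Plasmacytoid barcodes were scarcest after native MSCs. They made up 1.1% (0.911 to 1.32) of kept barcodes after PBS, 0.627% (0.483 to 0.80) after native MSCs and 1.12% (0.919 to 1.34) after engineered MSCs. The native MSC share was 1.76 times lower than the PBS share (1.28 to 2.42). The engineered MSC share was 1.01 times the PBS share (0.773 to 1.32) and 1.78 times the native MSC share (1.3 to 2.46). Among barcodes with a UMI of the leukocyte gene Ptprc, the shares were 1.47%, 0.791% and 2.09%. Among plasmacytoid and conventional dendritic barcodes together they were 50.4%, 54.7% and 33.3%, and there the native MSC liver was not the lowest. Type 1 conventional dendritic barcodes numbered 66, 26 and 174 and type 2 barcodes 47, 27 and 50. Their shares of kept barcodes were lower after native MSCs than after PBS too. The type 1 share was 2.48 times lower (1.55 to 4.07) and the type 2 share 1.7 times lower (1.04 to 2.84). After engineered MSCs the type 1 share was 2.74 times the PBS share (2.05 to 3.69) and the type 2 share 1.11 times (0.727 to 1.68).

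The limit on C1q, made by macrophages, acted unequally on the livers. It removed 40, 12 and 4 of the 157, 76 and 117 barcodes that met the Siglech and second-gene steps, or 25.5%, 15.8% and 3.42%. More than 2 C1q UMIs were also found in 18%, 6.32% and 1.83% of B barcodes and 21.4%, 9.16% and 3.28% of T barcodes. The removed barcodes held a median of 39, 30 and 38 Tcf4 UMIs, and the members 30, 32 and 41. With no C1q limit, a setting added after seeing the data, the engineered MSC share was 0.778 times the PBS share (0.606 to 0.996), and with no C1q UMI allowed it was 2.49 times the PBS share (1.64 to 3.86). The order of these livers turned with this setting. The native MSC share was 0.502 times the PBS share (0.376 to 0.664) without the limit and 1.18 times the PBS share (0.719 to 1.94) with no C1q UMI allowed. With each barcode thinned to 1500 UMIs, which left out 1217, 788 and 1536 kept barcodes, the shares were 1.06%, 0.425% and 0.893%.

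**Figure D2:**
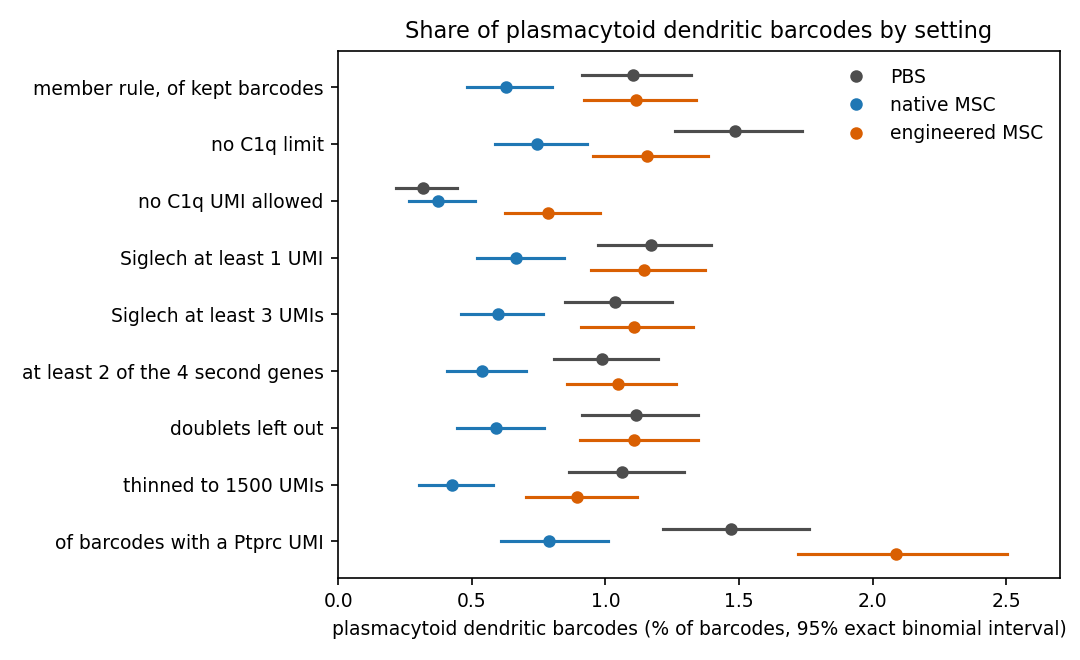
Plasmacytoid barcodes as a percentage of barcodes (points) with exact binomial 95% intervals (lines) in the 3 libraries, under the member rule and other settings. The PBS share runs from 0.316% with no C1q UMI allowed to 1.49% with no C1q limit.

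MHC class II genes differed between the members of the 3 livers, with the highest levels after engineered MSCs and the lowest after native MSCs. H2-Aa, the alpha chain of I-A, was at 881, 489 and 1694 CPM. Its beta chain H2-Ab1 was at 374, 233 and 934 CPM, and the invariant chain Cd74 at 2109, 1049 and 2726 CPM. After engineered MSCs, H2-Aa was 1.92 times as high (1.74 to 2.13) as after PBS and H2-Ab1 was 2.5 times as high (2.15 to 2.91). H2-Eb1, the beta chain of I-E, was 2.01 times as high (1.71 to 2.36) and Cd74 1.29 times as high (1.21 to 1.39). After native MSCs, H2-Aa was 1.8 times lower (1.53 to 2.12) than after PBS and Cd74 was 2.01 times lower (1.81 to 2.24). Ciita, the activator of class II transcription, had 14, 8 and 35 UMIs. The peptide-loading genes H2-DMa and H2-DMb1 did not follow this order: after native MSCs they were 1.57 times as high (1.25 to 1.97) and 1.62 times as high (1.07 to 2.45) as after PBS.

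To read counts of genes past 2-fold, the background over all genes with at least 30 UMIs in the pair is needed. Between native MSCs and PBS, 2.03% of 5459 genes were at least 2-fold higher and 2.78% lower, 4.82% in all. Between engineered MSCs and PBS these were 5.26% and 1.98% of 6508 genes, 7.24% in all. Between engineered and native MSCs they were 7.91% and 3.25% of 6132 genes, 11.2% in all. The median log2 ratio over all genes was -0.05, -0.03 and 0.04 in these comparisons, which share libraries and are not independent.

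Of 9 class II and loading genes so measured, 8 were higher after engineered MSCs than after PBS, 2 by at least 2-fold, with a median log2 ratio of 0.78. Against native MSCs, 7 of 9 were higher, 5 by at least 2-fold, with a median of 1.29. Between native MSCs and PBS, 6 of 8 were lower, 1 by at least 2-fold, with a median of -0.40.

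The class II order was also seen in the median barcode. Per barcode, the sum of H2-Aa, H2-Ab1, H2-Eb1 and Cd74 had a median of 2053, 292 and 6374 CPM. The sum was at 0 in 13, 21 and 4 members and reached 17445, 15183 and 22313 CPM, so the livers overlapped. The single richest barcode held at most 4.12% of the UMIs of any of these genes after engineered MSCs and 13.6% to 24.3% after native MSCs. In T barcodes, whose class II counts may include free RNA, the same sum was 1011, 163 and 249 CPM, beside 3716, 2026 and 6061 CPM in members. In neutrophil barcodes it was 1226, 363 and 1503 CPM, in the same order of livers as in members, and the part of free RNA in the class II difference was not tested. In B barcodes, which make class II themselves, it was 11139, 12190.1 and 11670.3 CPM. Thinned to 1500 UMIs, members with an H2-Aa UMI made up 48.6%, 28.1% and 77.5%.

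**Figure D3:**
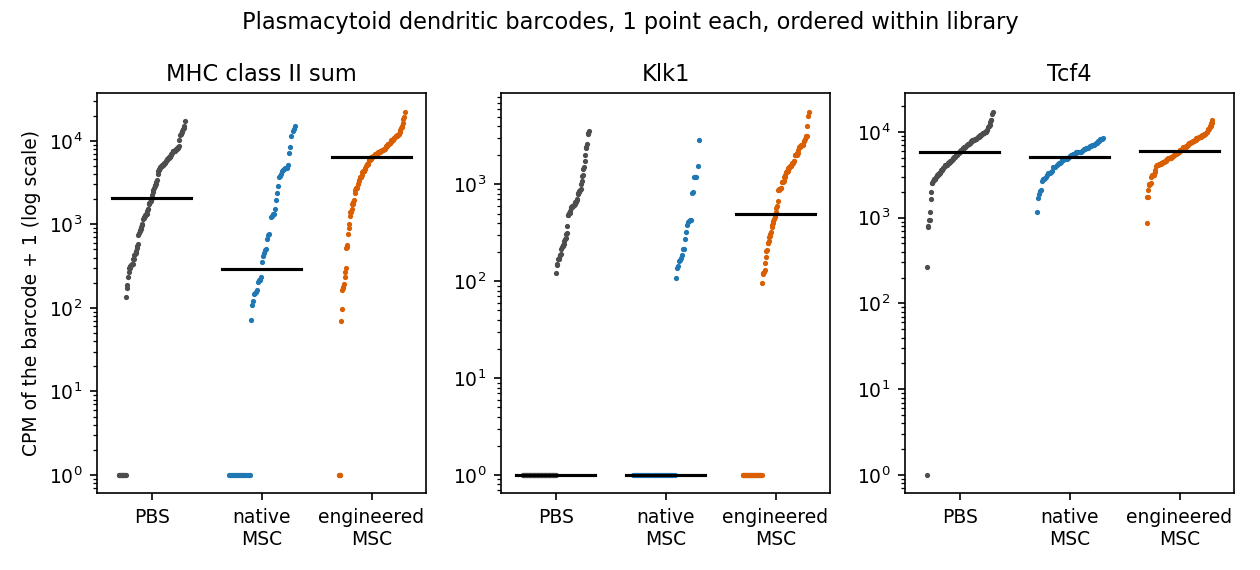
CPM (log scale, with 1 added) of the summed MHC class II genes, of Klk1 and of Tcf4 in each plasmacytoid barcode, ordered within its library, with the median as a black line. The class II medians are 2053, 292 and 6374 CPM, and the Tcf4 medians 5841, 5133 and 6006 CPM.

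Further genes followed the same order of livers. Klk1, a tissue kallikrein and 1 of the second genes of the rule, was at 435, 199 and 981 CPM and its relative Klk1b27 at 79, 43.1 and 157 CPM. These kallikreins are near-identical in sequence, so the split of counts between them is uncertain. Cd4, a coreceptor also found on plasmacytoid cells, was at 107, 83.8 and 283 CPM and 2.64 times as high (1.99 to 3.54) after engineered MSCs as after PBS. Cd8b1 was at 79, 45.3 and 247 CPM, while its partner Cd8a was at 109, 31.7 and 53.2 CPM and 2.04 times lower (1.37 to 3.08) after engineered MSCs than after PBS. The 8 T-cell markers summed to 55, 32 and 207 UMIs in members, of which Cd8b1 itself gave 48, 20 and 195. Grm8 was 1.51 times as high (1.38 to 1.64) after engineered MSCs as after PBS, and 2.02 times lower (1.76 to 2.33) after native MSCs. Klra17, a receptor of the Ly49 family, was at 214, 118 and 289 CPM. Between engineered MSCs and PBS, Cd4 was also higher in 5 of 5 comparison classes (type 1 and type 2 dendritic, B, T and neutrophil barcodes). Cd8b1 was higher in 3 of these, Klk1b27, Grm8 and Klra17 in 1 each and Klk1 in 0. Klk1 was lower in 4 and Klk1b27 in 0. Klk1 was near the floor in these classes, at 0 to 4.89 CPM over the 3 libraries. The rule also counted barcodes with Siglech and Klk1 as members, so the Klk1 count cannot be read as a difference between classes.

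Some genes, not all of them in the order above, also varied with class II inside each liver. Members were split at the median of their class II sum into equal groups of 57, 32 and 56 barcodes. The values describe this split and were not tested. Cd4 in the upper group was 2.91 times (1.64 to 5.4) its level in the lower group after PBS, 3.35 times (1.54 to 8.06) after native MSCs and 1.76 times (1.34 to 2.33) after engineered MSCs. Iglc3 was at 3.24, 2.61 and 1.78 times its level in the lower group, and Ly6d, a surface protein of lymphoid progenitors, at 1.37, 1.46 and 1.34 times. Cd8b1 was at 2.83 (1.46 to 5.83), 1.32 (0.495 to 3.59) and 2.54 (1.86 to 3.5) times, and Grm8 and Klra17 were not examined in this split. Klk1, which helped to choose the members and supports nothing here, was at 4.4, 5.24 and 2.73 times. Tcf4 was at 0.924, 0.971 and 1.12 times and Cd8a at 1.02, 0.807 and 1.02 times. Lyz2, a myeloid lysozyme, was at 0.544, 0.587 and 0.846 times. The median depth was 5314, 6959 and 7309.5 UMIs in the lower and 5172, 6408 and 6896 UMIs in the upper groups.

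**Figure D4:**
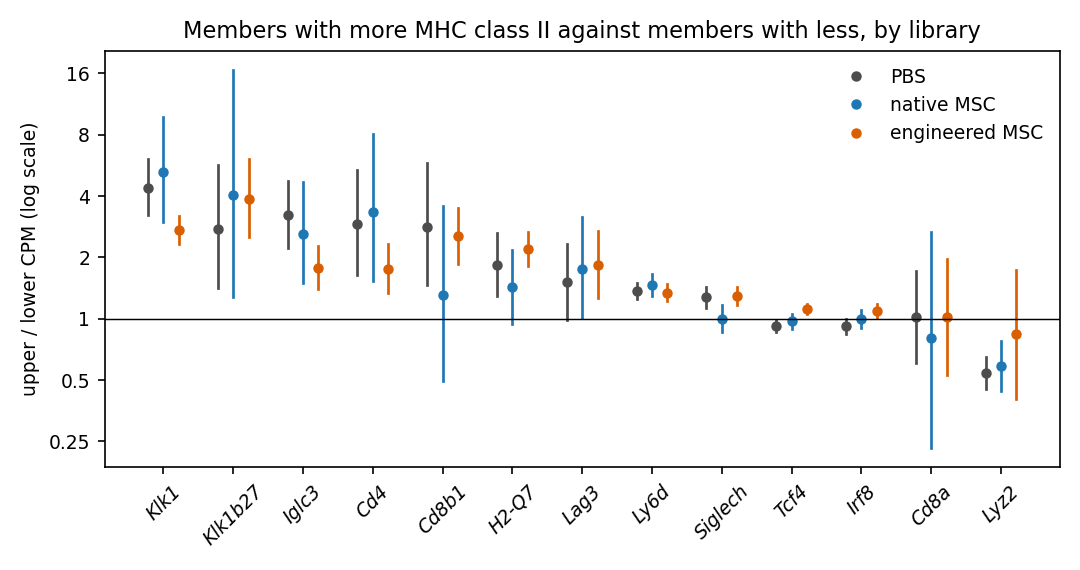
Ratio of CPM (log scale) between members with more and members with less MHC class II in the 3 libraries, with exact 95% intervals for counting error (lines). Cd4 lies at 2.91, 3.35 and 1.76 and Tcf4 at 0.924, 0.971 and 1.12, and Klk1 and Siglech are genes of the member rule.

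MHC class I genes were higher after engineered MSCs as well. H2-Q7, a non-classical class I gene, was at 232, 227 and 612 CPM and 2.64 times as high (2.18 to 3.2) as after PBS. H2-K1 was at 1422, 1432 and 2119.5 CPM and 1.49 times as high (1.37 to 1.62), and H2-D1 was 1.46 times as high (1.31 to 1.62). Between engineered MSCs and PBS, H2-Q7 was also higher in 5 of 5 comparison classes, H2-K1 in 5 of 5 and H2-D1 in 4 of 5 (type 1 and type 2 dendritic, B, T and neutrophil barcodes). Class I genes resemble each other closely, so reads can be split among them. Of 15 class I and peptide-loading genes, 11 were higher, 1 by at least 2-fold, with a median log2 ratio of 0.30. Between native MSCs and PBS, 7 of 15 were higher and the median was -0.03.

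Genes that respond to interferon were higher in members after engineered MSCs than after PBS. Ifit2, an antiviral effector, had 3, 6 and 50 UMIs. Usp18, a feedback inhibitor of the interferon receptor, was at 23, 43.1 and 79.8 CPM and 3.46 times as high (1.92 to 6.69). Ifi44 was 2.05 times as high (1.42 to 3.01) and Isg15, a ubiquitin-like modifier, 1.96 times as high (1.26 to 3.13). Irf7, the factor that drives interferon genes, was at 64.2, 102 and 144 CPM and 2.25 times as high (1.55 to 3.32). It was at 23.4, 31.1 and 19.3 CPM in B and 35.9, 85.9 and 59.2 CPM in type 1 barcodes. Between engineered MSCs and PBS, Irf7 was also higher in 4 of 5 comparison classes, Ifi44 in 5 of 5, Isg15 in 4 of 5 and Usp18 in 3 of 5. Of 16 response genes measured, 16 were higher after engineered MSCs than after PBS, 4 by at least 2-fold, with a median log2 ratio of 0.53. Between native MSCs and PBS, 8 of 13 were higher, 0 by at least 2-fold, with a median of 0.19.

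Interferon transcripts themselves were not detected in members. The 20 type I and type III interferon genes had 0 UMIs in 291 members, which allows up to 1.63 CPM, or 1.03% of members with a UMI. Over all barcodes these genes had 39 UMIs. Tlr7 was at 178, 129 and 193 CPM, and Tlr9 had 3, 0 and 3 UMIs. Of 19 genes of endosomal nucleic acid sensing, 6 were higher after engineered MSCs than after PBS, with a median log2 ratio of -0.07. Lgmn, an endosomal protease on that list, was 2.32 times lower (1.76 to 3.07) and was also lower in 5 of 5 comparison classes.

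Most immediate early genes were lower after engineered MSCs than after PBS. Egr1 went the other way, with a log2 ratio of 0.74, the highest on its list, and was also higher in 4 of 5 comparison classes. Fos was at 505, 1042 and 259.7 CPM, 2.06 times as high (1.78 to 2.39) after native MSCs as after PBS and 1.95 times lower (1.63 to 2.33) after engineered MSCs. The single richest barcode held 10.4%, 19.8% and 22.4% of the Fos UMIs. Nr4a1, a rapidly induced nuclear receptor, was at 97.1, 113 and 25.3 CPM. Between engineered MSCs and PBS, Fos was also lower in 4 of 5 comparison classes (type 1 and type 2 dendritic, B, T and neutrophil) and Nr4a1 in 5 of 5. The HSP70 genes Hspa1a and Hspa1b had another order, at 237, 102 and 195 CPM and 314, 134 and 299 CPM. Of 18 immediate early and stress genes, which also respond to tissue dissociation, 14 were lower after engineered MSCs than after PBS, 2 by at least 2-fold, with a median log2 ratio of -0.30. Against native MSCs the median was -0.62, and -0.07 with likely doublets left out.

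Glycolytic genes were lower after engineered MSCs too, in members and in the other classes. Pkm was at 212, 179 and 110.2 CPM, Ldha at 206, 197 and 117 CPM and Aldoa at 132, 129 and 68.4 CPM. Aldoa was at 196, 209 and 88.1 CPM in B and 233, 267 and 125 CPM in T barcodes, and each of Pkm, Ldha, Aldoa and Eno1 was lower after engineered MSCs than after PBS in 5 of 5 comparison classes. Of 12 glycolysis and hypoxia genes, 10 were lower than after PBS, 1 of them (Eno1) by at least 2-fold, with a median log2 ratio of -0.47. Between native MSCs and PBS the median was -0.06, and 0.18 with no C1q limit. Of 12 cytochrome c oxidase genes, 9 were lower after native MSCs and 9 after engineered MSCs than after PBS, 0 by at least 2-fold. Their medians were -0.22 and -0.08, against -0.05 and -0.03 over all genes measured. The list holds Cox6a2, a gene of the member rule, which lay furthest from PBS on it after native MSCs. Of 27 secretory pathway genes, 20 were lower after engineered MSCs than after PBS, 0 by at least 2-fold, with a median of -0.22.

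Mcl1, a short-lived anti-apoptotic protein, was at 278, 401 and 191 CPM, and Bcl2 had 18, 23 and 15 UMIs. Of 5 survival and apoptosis genes, 5 were lower after engineered MSCs than after PBS (median -0.46) and 4 were higher after native MSCs (median 0.64). The native MSC median was 0.14 with no C1q UMI allowed and 0.15 with no limit. The costimulatory ligand Cd86 had 41, 32 and 12 UMIs and was 4.44 times lower (2.29 to 9.28) after engineered MSCs than after PBS. The chemokine Ccl4 was at 777, 1042 and 527 CPM, and Cxcr4, a bone-marrow retention receptor, at 98.8, 99.7 and 49.4 CPM. Mcl1, Cd86, Ccl4 and Cxcr4 were each also lower after engineered MSCs than after PBS in 5 of 5 comparison classes. Of 14 chemokine receptor and homing genes, 11 were lower after engineered MSCs than after PBS, 0 by at least 2-fold, with a median of -0.21. This list includes Ccr9, a gene of the member rule.

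The lineage factors differed little. Of 10 plasmacytoid transcription factors, 0 were past 2-fold between native MSCs and PBS and 1 (Irf7) between engineered MSCs and PBS, with medians of -0.18 and -0.06. Tcf4 was 1.18 times lower (1.12 to 1.24) after native MSCs than after PBS. Mki67 and Top2a, genes of dividing cells, were found together in 0, 0 and 1 members, and 1 barcode held 92.3% of the Top2a UMIs after engineered MSCs.

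**Figure D5:**
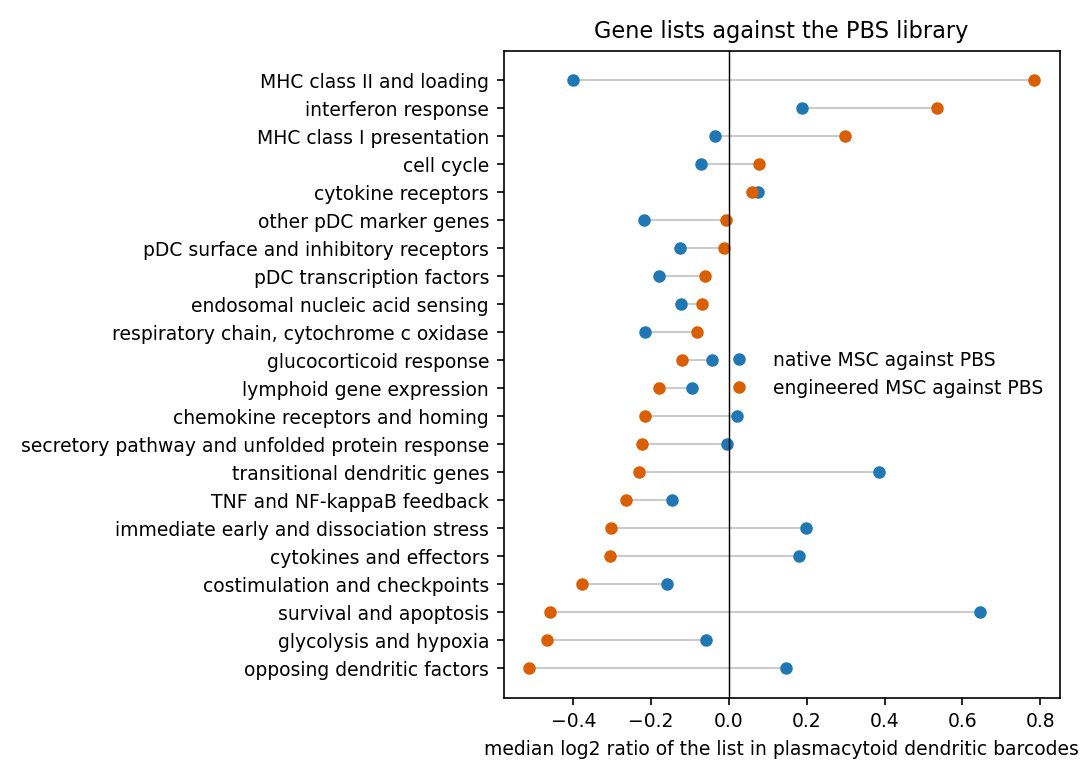
Median log2 ratio of CPM in plasmacytoid barcodes by gene list, for native MSCs and engineered MSCs against the shared PBS library. MHC class II lies at -0.40 and 0.78 and interferon response at 0.19 and 0.53.

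Some of the genes furthest apart between livers rested on few barcodes or on genes of other cells. After native MSCs, 1 barcode held 99% of the Dcn, 100% of the Col1a2, 100% of the Sparc and 81.8% of the Plpp3 UMIs. After engineered MSCs, 1 barcode held 100% of the Mecom and 91.7% of the Hdc UMIs. The hepatocyte gene Cyp3a11 had 1, 12 and 185 UMIs. In members, 20 hepatocyte markers summed to 644, 1217 and 6677 CPM, 6 red-cell markers to 9.88, 580.1 and 7121 CPM, 8 neutrophil markers to 92.2, 2547 and 32.9 CPM and 10 macrophage markers to 1253, 768 and 286 CPM. The inflammatory cytokine gene Il1b had 15, 226 and 5 UMIs. The part of this RNA in the differences given here was not tested.

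Other far genes were found in more members. Gcnt2, a glycan-branching enzyme, was at 181, 202 and 55.7 CPM and detected in 38, 33 and 14 members. Pde4b, a cAMP phosphodiesterase, was at 153, 269.6 and 57 CPM, and the clock gene Per1 at 95.5, 74.8 and 26.6 CPM. Gcnt2 was 3.25 times lower (2.27 to 4.72) after engineered MSCs than after PBS, Pde4b 2.69 times lower (1.86 to 3.92) and Per1 3.59 times lower (2.15 to 6.23). Gcnt2 was also lower in 4 of 5 comparison classes, Pde4b in 4 of 5 and Per1 in 5 of 5. After native MSCs, Fam169b was 3.83 times lower (1.99 to 8.1) than after PBS and Gpm6b, a membrane proteolipid, 4.12 times lower (2.21 to 8.36).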

How the data were processed

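The submitters' processing notes name Cell Ranger 7.1.0 and the build GRCm39, and the authors deposited raw counts (UMIs) for 34099 genes per barcode. Free RNA was not subtracted. Members and comparison classes were set by UMI thresholds, and members were left out of the comparison classes. Member UMIs were summed per library and scaled to CPM. With 1 library per group there was no test: intervals (scipy 1.17.1) are Clopper-Pearson, Poisson or conditional binomial at 95% and cover counting error only. The code was tested on simulated data. List medians use genes with at least 30 UMIs in the pair, with 0.5 in place of a count of 0. The lists of plasmacytoid receptors, plasmacytoid markers, homing and cytochrome c oxidase genes include genes of the member rule. Likely doublets were marked by Scrublet (scanpy 1.11.5), assuming 0.8% per 1000 barcodes.

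Named genes were the rule genes and markers, the 15 furthest above other barcodes, the 5 with the furthest ratio bounds per direction and pair, up to 4 per list, the 8 most like Siglech and a few always named. Members, lists and rules were chosen with earlier results of these data known.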

Additional observations from a re-analysis of the deposited data

How the results depend on the processing

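Values are log2 ratios, list medians of log2 ratios, or counts of genes. The class II medians kept their direction under the settings run. Klk1 did too, but it is a gene of the member rule, which several settings change, so this supports nothing. The values that follow are the shares, list medians and gene counts that moved or turned from the main setting, and the genes that turned. Of the log2 ratios of individual genes, 205 moved outside their main interval but were not counted as turned and are not listed. Another 2459 stayed the same and 15 turned. Each individual gene listed turned, so its value has the opposite direction to the main setting. With no C1q UMI allowed, native MSCs against PBS gave shares 0.24, genes 2-fold lower 90, lymphoid gene expression -0.52, survival and apoptosis 0.14, transitional dendritic genes 0.78, Dcn -0.69, Plpp3 -0.69, Itgb3 0.31. Engineered MSCs against PBS gave shares 1.31, other plasmacytoid marker genes 0.14, cytokines and effectors 0.28, lymphoid gene expression -0.48, transitional dendritic genes -0.46, cell cycle -0.46, glucocorticoid response -0.76, Top2a -4.12. Engineered MSCs against native ones gave cell cycle -0.34, Kit -0.11, Dcn 3.70, Fmo2 5.25. With 1 Siglech UMI enough, engineered MSCs against native ones gave cytokines and effectors -1.24. With at least 10 UMIs in the pair, native MSCs against PBS gave genes 2-fold higher 472, genes 2-fold lower 555. Engineered MSCs against PBS gave genes 2-fold higher 1115, genes 2-fold lower 429. Engineered MSCs against native ones gave genes 2-fold higher 1361, genes 2-fold lower 554. With at least 100 UMIs in the pair, native MSCs against PBS gave genes 2-fold higher 17, genes 2-fold lower 16. Engineered MSCs against PBS gave genes 2-fold higher 71, genes 2-fold lower 21. The comparison of engineered MSCs against native ones gave genes 2-fold higher 101, genes 2-fold lower 52, MHC class I presentation 0.16. With at least 2 second genes, engineered MSCs against native ones gave H2-DMa 0.085. With likely doublets left out, native MSCs against PBS gave Sparc -2.34. Engineered MSCs against PBS gave glucocorticoid response -0.60. The comparison of engineered MSCs against native ones gave cytokines and effectors -1.43, immediate early and dissociation stress -0.069, Kit -1.34, Dcn 3.78, Fmo2 5.33. With each member counted alike, engineered MSCs against PBS gave glucocorticoid response -0.62. With no C1q limit, chosen after seeing the data, native MSCs against PBS gave genes 2-fold higher 207, genes 2-fold lower 253, plasmacytoid transcription factors -0.32, survival and apoptosis 0.15, cell cycle 1.14, glycolysis and hypoxia 0.18. Engineered MSCs against PBS gave genes 2-fold lower 289, other plasmacytoid marker genes 0.11. The comparison of engineered MSCs against native ones gave genes 2-fold lower 369, opposing dendritic factors -1.39, plasmacytoid surface and inhibitory receptors 0.36, other plasmacytoid marker genes 0.35, MHC class I presentation 0.57, cell cycle -0.37, glycolysis and hypoxia -0.98, Irf8 0.16, Cd209d 0.0093, H2-DMa 0.0079. Among Ptprc barcodes, engineered MSCs against PBS gave shares 0.50. The comparison of engineered MSCs against native ones gave shares 1.40. Among dendritic barcodes, native MSCs against PBS gave shares 0.12. Engineered MSCs against PBS gave shares -0.60. Engineered MSCs against native ones gave shares -0.71. Thinned to 1500 UMIs, native MSCs against PBS gave shares -1.32. The causes of these moves were not tested. No paired analysis was possible because each group is 1 library, and no library could be left out. Depth limits genes with few UMIs.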
